A study of Mus musculus and Rattus norvegicus with 14 samples.

Results

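Hearts of mice given the compound LQ-40 were compared with hearts of the Model group, across all genes. The comparison rests on 6 of the 14 samples of the series, 3 labelled LQ-40 and 3 labelled Model, and on 13000 tested genes of 54532 in the deposited table. Members were taken by the sample titles alone. The study screened for compounds against fibrosis of the heart muscle and then measured messenger RNA in mouse myocardium. LQ-40 and SQ-3 are known here by their code names only, and the design text describes them as structurally similar. The 3 SQ-3 hearts and 3 Sham hearts entered the same fit and are given beside some results. The other 2 samples are rat cell cultures and were not used here.

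The labels name the tissue of all 4 mouse groups as heart and give each a single word of treatment, LQ-40, SQ-3, Model or Sham. They state no strain, genotype, age, dose, route, length of treatment or hour of collection. They do not say by what procedure the Model was made, nor that LQ-40 hearts went through it. No label ties a sample to an animal of its own. The p-values therefore rest on the variation among samples within groups, part or all of which could be technical. That variation was pooled over all 4 mouse groups for each gene. RNA came from pieces of whole heart, in which fewer cells of a type and less RNA per cell cannot be told apart.

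Several of the pathways described here work as feedback loops. In the circadian clock of mammals, CLOCK or NPAS2 pairs with BMAL1 (gene Arntl) on E-boxes and switches on the Per, Cry and Rev-erb genes, whose proteins then hold that pair or the Arntl gene down. The output factors DBP, TEF and HLF bind D-boxes, and NFIL3 competes with them there. The unfolded protein response of the endoplasmic reticulum raises chaperones such as BiP (Hspa5) through ATF6 and XBP1 when unfolded protein accumulates. Interferon-gamma raises the IRG and GBP families of GTPases. Fibrosis of the heart is the laying down of collagen and other matrix by activated fibroblasts.

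The 6 libraries held 13672284, 15104490 and 14121808 reads in LQ-40 hearts, against 15472739, 14254980 and 16306836 in Model hearts. Levels are given as scaled FPKM, the deposited FPKM (reads per kilobase of gene and per unit of library size) after division by 1 factor per library. Differences are LQ-40 minus Model on the log2(scaled FPKM + 1) scale, and folds are taken on that scale. A gene is called changed where limma's adjusted p was under 0.05. As a check of the tissue label, the cardiac troponin Tnni3 had 1280.3, 765 and 543 scaled FPKM in LQ-40 hearts, against 579, 835 and 674 in Model hearts. LQ-40 libraries differed more among themselves than Model libraries did. Between LQ-40 1 and LQ-40 3, 1274 genes were at least 2-fold apart, against 261 to 378 genes between pairs of Model libraries. LQ-40 1 stood apart, with low matrix transcripts and high muscle and mitochondrial transcripts.

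In LQ-40 hearts 87 genes changed against Model hearts, 0.669% of the genes tested. Of these, 24 rose (0.185%) and 63 fell (0.485%), and 21 and 31 of them did so by at least 2-fold. At an unadjusted p under 0.05 the same limma fit held 1579 genes. All 3 LQ-40 libraries lay above all 3 Model libraries for 7.28% of tested genes and below them for 10.8%, together 18.1%, and the 87 called genes are all among these. The genes that rose were led by clock genes and by interferon-induced GTPases. Those that fell were led by the BMAL1 arm of the clock, endoplasmic reticulum chaperones, immediate early factors and the stress cytokine Gdf15. Without LQ-40 1, 50 genes were called, 21 that rose (0.162%) and 29 that fell (0.223%), and 44 of the 50 were among the 87.

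Promoter sequences of the genes that lead these groups are shown first, since the groups are known for named elements. They come from RefSeq (GRCm38.p6, the same assembly as mm10), which held a stretch from 250 bases before to 50 after the start for 65 of the 87 called genes. Each motif was searched on both strands by its letters alone. A match is a description of the letters and not a site of binding. The E-box CACGTG stood in 11.73% of tested genes with a promoter and in 10 of the 65 called ones, 2 of which rose and 8 fell. The D-box TTATGTAA or TTACGTAA stood in 0.8586% of tested genes and in 1 called gene, Per3. The ROR element TAGGTCA stood in 2.286% of tested genes and in 3 called genes, Arntl, Nfil3 and Leo1, which all fell. In Arntl it lies at bases 30 to 36 after the start. Among all 32851 promoters the shares were 7.15% for the E-box, 1.056% for the D-box and 2.606% for the ROR element. Capitals mark the motif in these clock promoters, written 5′ to 3′ along the gene, and in Nfil3 it reads on the opposite strand.
Per3, chr4:151044806-151044885, minus strand: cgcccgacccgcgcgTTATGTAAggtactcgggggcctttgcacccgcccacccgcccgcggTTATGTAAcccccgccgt
Ciart, chr3:95882259-95882353, minus strand: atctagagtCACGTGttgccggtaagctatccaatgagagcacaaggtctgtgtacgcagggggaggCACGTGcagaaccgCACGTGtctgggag
Tef, first start, chr15:81802518-81802577, plus strand: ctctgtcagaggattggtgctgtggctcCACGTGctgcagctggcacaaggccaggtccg
Tef, other start, chr15:81811259-81811318, plus strand: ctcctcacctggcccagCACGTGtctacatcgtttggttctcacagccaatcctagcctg
Nfil3, chr13:52981040-52981084, minus strand: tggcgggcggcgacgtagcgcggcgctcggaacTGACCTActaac

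The endoplasmic reticulum stress element, CCAAT and CCACG with any 9 bases between them, is the letter pattern that ATF6 and the general factor NF-Y are known to share. It stood in 0.1187% of all promoters and in 15 tested genes (0.161%), 4 of which were called and fell, namely Hspa5, Creld2, Dnajc3 and Syvn1. Capitals mark it here; in Creld2 it reads on the opposite strand.
Hspa5, chr2:34772005-34772064, plus strand: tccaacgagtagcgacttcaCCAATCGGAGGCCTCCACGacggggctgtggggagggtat
Creld2, chr15:88819500-88819559, plus strand: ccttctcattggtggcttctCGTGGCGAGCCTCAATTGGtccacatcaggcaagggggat
Dnajc3, chr14:118937807-118937866, plus strand: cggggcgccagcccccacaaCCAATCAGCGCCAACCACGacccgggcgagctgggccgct
Syvn1, chr19:6046512-6046571, plus strand: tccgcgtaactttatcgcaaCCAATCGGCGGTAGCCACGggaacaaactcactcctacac

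The interferon-stimulated pattern, GAAA repeated after any 2 bases, stood in 3.443% of all promoters, 3.8% of tested genes and 8 called genes, of which 6 rose. The interferon-gamma activated pattern TTCNNNGAA stood in 8.298% of all promoters, 8.05% of tested genes and 8 called genes, which all rose. Igtp, Irgm2 and Tgtp2 each carry both patterns within a few bases of each other. Capitals mark both in those promoters, and in Gbp3 a pair of overlapping GAAA repeats on the opposite strand.
Igtp, chr11:58199491-58199545, plus strand: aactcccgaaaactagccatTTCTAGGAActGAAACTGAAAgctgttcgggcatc
Irgm2, chr11:58214882-58214936, plus strand: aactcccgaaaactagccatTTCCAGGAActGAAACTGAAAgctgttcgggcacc
Tgtp2, chr11:49064259-49064313, minus strand: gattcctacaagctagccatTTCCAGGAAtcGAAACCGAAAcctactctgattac
Gbp3, chr3:142559979-142560033, plus strand: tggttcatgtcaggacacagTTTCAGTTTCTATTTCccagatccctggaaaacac

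Clock genes held the changes with the smallest p in LQ-40 hearts. Of the 13 tested clock output genes, 5 rose (Dbp, Tef, Hlf, Ciart and Fmo2), 1 fell (Nfil3) and 7 did not pass the test. Of the 15 genes of the core loop, 3 rose (Per2, Per3 and Nr1d2), 3 fell (Arntl, Npas2 and Clock) and 9 did not pass. The background is 0.185% of genes that rose and 0.485% that fell. The median difference was 0.85 over the output list and 0.02 over the core loop, where rises and falls offset each other, against 0.0066 over all tested genes. Without LQ-40 1 the same 6 genes of the core loop were called. Of the output genes Fmo2 lost its call there (adjusted p = 0.0721), Tspan4 gained one (adjusted p = 0.0272) and the other 5 kept theirs. Without Model 3 the adjusted p was 0.0559 for Per2, 0.0610 for Npas2 and 0.0567 for Ciart.

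**Figure D1:**
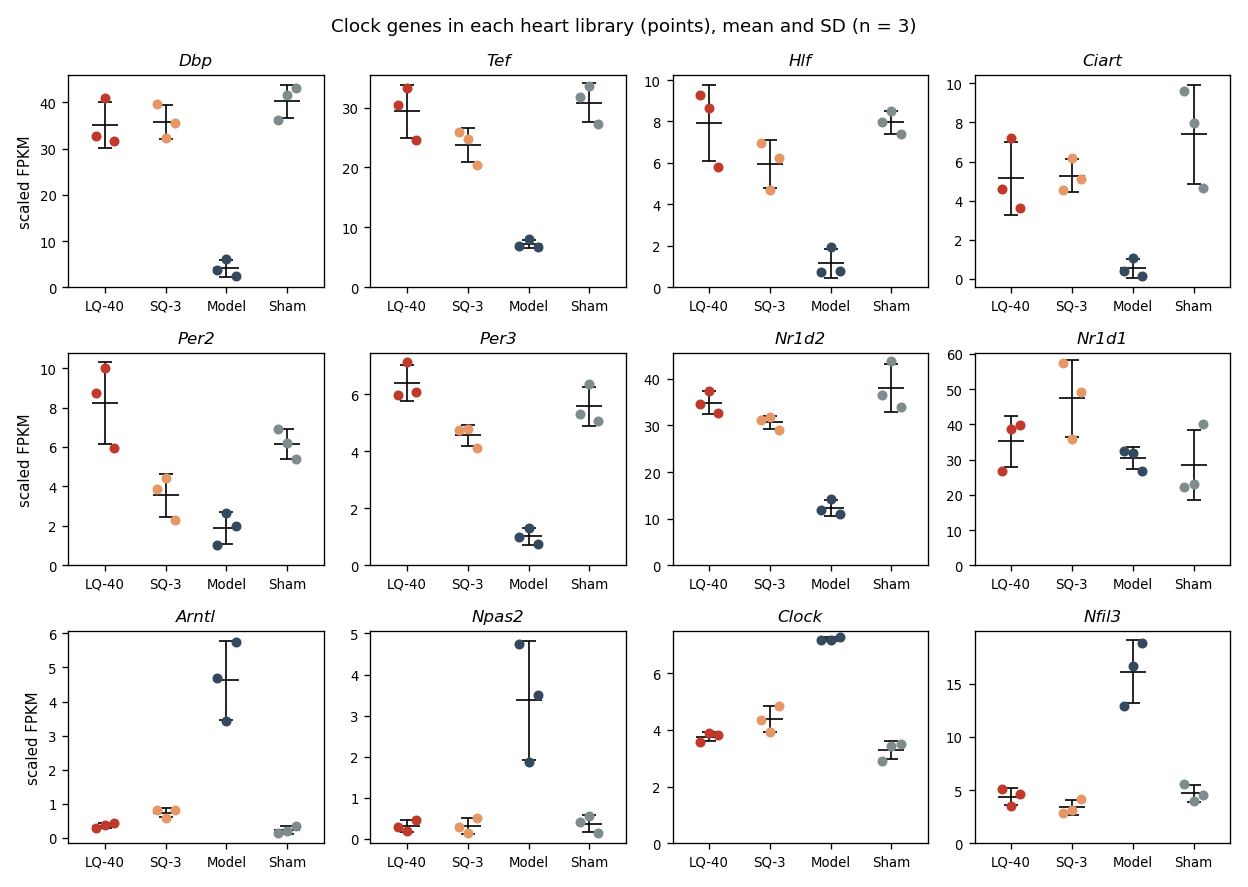
Scaled FPKM of 12 clock genes in each heart library, with a panel per gene and the groups LQ-40, SQ-3, Model and Sham from left to right. Points are libraries, bars are the mean and SD of 3. Apart from Nr1d1, whose groups overlap, the 3 Model libraries of each gene lie to one side of the 3 LQ-40 libraries.

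Among the output factors, Dbp (albumin D-box binding protein, chr7:45705088-45710203) had 32.8, 40.9 and 31.7 scaled FPKM in LQ-40 hearts, against 3.77, 6.10 and 2.54 in Model hearts. Its mean was 35.1 ± 5.05 in LQ-40 hearts and 4.14 ± 1.81 in Model hearts (SD, n = 3 each). All LQ-40 libraries lay well above the Model libraries, a rise of 7.28-fold (difference 2.86 ± 0.21 SE, adjusted p = 0.000189). Tef, its thyrotroph relative, had 30.4, 33.2 and 24.5 scaled FPKM in LQ-40 hearts, against 6.92, 8.05 and 6.74 in Model hearts. It rose 3.67-fold (difference 1.88 ± 0.14 SE, adjusted p = 0.000189), with no overlap between the groups. Hlf, the third of these factors, had 9.30, 8.66 and 5.81 scaled FPKM in LQ-40 hearts, against 0.705, 1.93 and 0.780 in Model hearts (difference 2.08 ± 0.22 SE, adjusted p = 0.00201). Nfil3 encodes the repressor that competes for D-boxes and went the other way. It had 5.07, 3.48 and 4.63 scaled FPKM in LQ-40 hearts, against 12.9, 16.7 and 18.8 in Model hearts, and fell 3.17-fold (difference -1.66 ± 0.17 SE, adjusted p = 0.00201). The Nfil3 promoter printed above carries the ROR element within the last bases before its start. Fmo2, a flavin monooxygenase, had 27.6, 54.4 and 23.0 scaled FPKM in LQ-40 hearts, against 10.8, 10.98 and 12.5 in Model hearts (difference 1.44 ± 0.27 SE, adjusted p = 0.0376), and passed in 8 of 14 alternatives. Dbp, Tef and Nfil3 kept their call in all 14 alternative settings.

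Of the negative arm, Per3 had 5.97, 7.12 and 6.09 scaled FPKM in LQ-40 hearts, against 0.986, 1.32 and 0.732 in Model hearts, and held the smallest adjusted p among the named genes (difference 1.88 ± 0.12 SE, adjusted p = 0.000136). It overlaps Camta1 on the same strand, so reads shared between them are uncertain. Per2 had 8.74, 9.99 and 5.93 scaled FPKM in LQ-40 hearts, against 1.04, 2.66 and 1.97 in Model hearts (difference 1.69 ± 0.25 SE, adjusted p = 0.0115). Nr1d2 (REV-ERB-beta, a repressor of Arntl) had 34.6, 37.4 and 32.6 scaled FPKM in LQ-40 hearts, against 11.9, 14.2 and 10.9 in Model hearts. It rose 2.70-fold and kept its call in all 14 alternatives (difference 1.43 ± 0.12 SE, adjusted p = 0.000451). Ciart encodes CHRONO, a repressor of the BMAL1 pair, and its promoter holds 3 of the E-boxes shown above. It had 4.61, 7.19 and 3.601 scaled FPKM in LQ-40 hearts, against 0.386, 1.07 and 0.155 in Model hearts (difference 2.00 ± 0.28 SE, adjusted p = 0.00976), at an average of 96.8 reads a library. Not every repressor moved. Nr1d1 (REV-ERB-alpha) had 26.8, 38.7 and 39.9 scaled FPKM in LQ-40 hearts, against 32.4, 31.9 and 26.8 in Model hearts, and the groups overlapped (difference 0.19 ± 0.25 SE, adjusted p = 0.796). Per1 differed by 0.02, Cry1 by 0.31 and Cry2 by 0.47, none of which passed (adjusted p 0.983, 0.423 and 0.0916).

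The positive arm was lower in LQ-40 hearts. Arntl (BMAL1, chr7:113207465-113314126) had 0.287, 0.368 and 0.430 scaled FPKM in LQ-40 hearts, against 4.69, 3.42 and 5.75 in Model hearts. All LQ-40 libraries were under 1 scaled FPKM and all Model libraries over 3, a fall of 4.07-fold (difference -2.02 ± 0.16 SE, adjusted p = 0.000222). Npas2, the CLOCK relative, had 0.290, 0.184 and 0.467 scaled FPKM in LQ-40 hearts, against 4.76, 1.87 and 3.51 in Model hearts (difference -1.69 ± 0.24 SE, adjusted p = 0.00976). Clock itself had 3.58, 3.88 and 3.82 scaled FPKM in LQ-40 hearts, against 7.16, 7.17 and 7.27 in Model hearts. Its fall was 1.72-fold, with little spread in either group (difference -0.79 ± 0.09 SE, adjusted p = 0.00311). On the folds printed here, levels of low genes are understated by the added 1. In Sham hearts Dbp had 36.1, 41.5 and 43.0 scaled FPKM and Arntl 0.145, 0.207 and 0.365, so that Model hearts were the group that stood apart on both genes. The hour at which hearts were taken is not in the labels, and an hour that differed between groups cannot be told apart from treatment for any clock gene. Dbp overlaps Sphk2 on the opposite strand, whose reads averaged 229 per library in LQ-40 hearts and 372 in Model hearts. The strand setting of the counting is not given in the sources used here.

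Chaperones and quality control genes of the endoplasmic reticulum made up the largest set of listed genes that fell. Of 35 tested members, 8 fell, 0 rose and 27 did not pass, against a background of 0.485% of genes that fell. The median difference of the list was -0.41, against 0.0066 over all tested genes. For 24 of the 35 all LQ-40 libraries lay below all Model libraries, against 10.8% of tested genes. Without LQ-40 1, 6 of the 35 fell, and Dnajc3 and Syvn1 lost their calls (adjusted p 0.0640 and 0.0741).

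**Figure D2:**
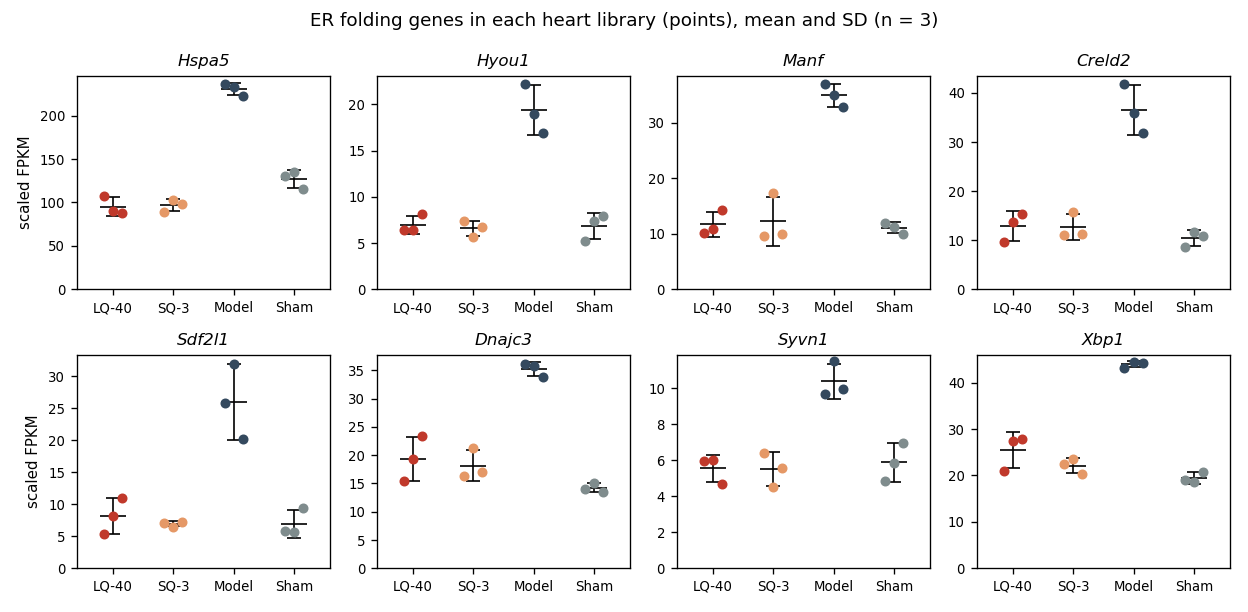
Scaled FPKM of the 8 called endoplasmic reticulum genes in each heart library, a panel per gene, with groups in the order LQ-40, SQ-3, Model and Sham. Points are libraries, bars are the mean and SD of 3. In every panel the 3 Model libraries lie above the other 9.

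Hspa5 encodes BiP, the main chaperone of that compartment (chr2:34771970-34777547). It had 108, 89.8 and 87.5 scaled FPKM in LQ-40 hearts, against 237, 233 and 223 in Model hearts, means of 95.1 ± 11.2 and 231 ± 7.14 in LQ-40 and Model hearts (SD, n = 3 each). The groups were far apart and the fall was 2.42-fold (difference -1.28 ± 0.13 SE, adjusted p = 0.00144). Hyou1, a large relative of BiP that exchanges its nucleotide, had 6.46, 6.41 and 8.11 scaled FPKM in LQ-40 hearts, against 22.2, 19.0 and 16.9 in Model hearts. It fell 2.55-fold and kept its call in all 14 alternatives (difference -1.35 ± 0.16 SE, adjusted p = 0.00319). Manf, a secreted protein that binds BiP, had 10.1, 10.8 and 14.3 scaled FPKM in LQ-40 hearts, against 37.0, 35.0 and 32.9 in Model hearts (difference -1.51 ± 0.20 SE, adjusted p = 0.00662). Manf overlaps Rbm15b on the same strand and Dcaf1 on the other, so its reads are uncertain. Creld2, which stress of that compartment is known to induce, had 9.55, 13.7 and 15.4 scaled FPKM in LQ-40 hearts, against 41.8, 36.004 and 31.8 in Model hearts (difference -1.45 ± 0.19 SE, adjusted p = 0.00662). Sdf2l1, which keeps client proteins of BiP from aggregating, had 5.36, 8.13 and 10.995 scaled FPKM in LQ-40 hearts, against 25.8, 31.9 and 20.2 in Model hearts (difference -1.58 ± 0.24 SE, adjusted p = 0.01501). None of these 5 genes had overlapping groups.

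Dnajc3 encodes a co-chaperone of BiP that also inhibits the kinase PERK. It had 15.5, 19.3 and 23.3 scaled FPKM in LQ-40 hearts, against 36.2, 35.8 and 33.7 in Model hearts (difference -0.85 ± 0.14 SE, adjusted p = 0.0251). Syvn1 encodes the ubiquitin ligase HRD1 of the degradation branch. It had 5.95, 6.05 and 4.68 scaled FPKM in LQ-40 hearts, against 9.68, 11.5 and 9.98 in Model hearts (difference -0.80 ± 0.15 SE, adjusted p = 0.0356), and it overlaps Mrpl49. Xbp1, the factor whose spliced form drives much of the response, had 20.9, 27.4 and 27.8 scaled FPKM in LQ-40 hearts, against 43.2, 44.4 and 44.3 in Model hearts (difference -0.78 ± 0.12 SE, adjusted p = 0.0144). Gene-level values do not separate its spliced from its unspliced form. Several folding enzymes were lower without passing. Pdia4, a disulfide isomerase, differed by -0.98 (adjusted p = 0.0507), the lectin chaperone Calr by -0.88 (adjusted p = 0.0744) and Hsp90b1, the HSP90 of that compartment, by -0.67 (adjusted p = 0.140). Herpud1, of the degradation machinery, had 87.9, 77.1 and 52.9 scaled FPKM in LQ-40 hearts, against 39.2, 66.7 and 56.8 in Model hearts, with overlap (difference 0.42 ± 0.23 SE, adjusted p = 0.510).

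The integrated stress response is the branch of translation control that runs through ATF4. Of its 20 tested genes, 1 fell, 0 rose and 19 did not pass, against 0.485% of tested genes that fell, with a median difference of -0.37. All LQ-40 libraries lay below all Model libraries for 14 of the 20, against 10.8% of tested genes. The one that fell was Gdf15, a secreted stress cytokine, with the largest fall of all called genes on the log2(scaled FPKM + 1) scale. In limma-voom the log2 differences of Adamts4 (-3.67) and Arntl (-3.63) were larger than that of Gdf15 (-3.54). Gdf15 had 0.5002, 2.01 and 3.89 scaled FPKM in LQ-40 hearts, against 28.4, 11.7 and 22.9 in Model hearts. The LQ-40 libraries were spread over several fold and still lay below all Model libraries, a fall of 7.41-fold (difference -2.89 ± 0.47 SE, adjusted p = 0.0217). Without LQ-40 1 its adjusted p was 0.0640. Atf4 differed by -0.47 (adjusted p = 0.373), Ddit3 by -0.37 (adjusted p = 0.286) and Atf3 by -1.51 (adjusted p = 0.0799).

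Of 28 tested heat shock genes of cytosol and mitochondria, 3 fell, 0 rose and 25 did not pass, against 0.485% of tested genes that fell. The median difference was -0.19, and -0.35 without LQ-40 1. All LQ-40 libraries lay below all Model libraries for 14 of the 28, against 10.8% of tested genes. Hsph1, which exchanges the nucleotide of HSP70, had 5.94, 6.03 and 5.86 scaled FPKM in LQ-40 hearts, against 12.8, 13.1 and 14.5 in Model hearts. Its libraries agreed closely within each group, and it fell 2.08-fold with a call in all 14 alternatives (difference -1.06 ± 0.13 SE, adjusted p = 0.00524). Hsp90aa1, the inducible form of HSP90, had 36.7, 47.3 and 55.2 scaled FPKM in LQ-40 hearts, against 89.5, 91.5 and 99.7 in Model hearts (difference -1.01 ± 0.17 SE, adjusted p = 0.0258). Hspa1b had 1.02, 1.87 and 2.06 scaled FPKM in LQ-40 hearts, against 3.98, 9.48 and 5.12 in Model hearts (difference -1.39 ± 0.26 SE, adjusted p = 0.0367). It has a near-identical copy, Hspa1a, which was under the expression minimum, so the split of reads between them is uncertain. Without LQ-40 1 the adjusted p was 0.0734 for Hsp90aa1 and 0.117 for Hspa1b, while Hsph1 kept its call. The small heat shock protein Cryab differed by 0.02 and mitochondrial Hspd1 by -0.05 (adjusted p 0.971 and 0.954).

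Immediate early genes encode transcription factors that cells switch on within minutes of a stimulus. Of 25 tested, 5 fell, 0 rose and 20 did not pass, against 0.485% of tested genes that fell. The median difference was -0.87. For 22 of the 25 all LQ-40 libraries lay below all Model libraries, against 10.8% of tested genes. Without LQ-40 1, Nr4a3 was the 1 of the 25 called, and the adjusted p was 0.109 for Nr4a1, 0.0900 for Egr2, 0.0721 for Fosl2 and 0.0721 for Klf4. The orphan nuclear receptor Nr4a1 had 2.49, 6.35 and 7.03 scaled FPKM in LQ-40 hearts, against 20.97, 51.9 and 49.0 in Model hearts (difference -2.71 ± 0.49 SE, adjusted p = 0.0345). Its relative Nr4a3 had 0.774, 1.29 and 0.893 scaled FPKM in LQ-40 hearts, against 4.32, 6.10 and 4.96 in Model hearts (difference -1.62 ± 0.13 SE, adjusted p = 0.000289). Nr4a3 was the steadier of the pair across libraries, and it passed in 13 of 14 alternatives. The remaining one, the filter at a mean of 5 FPKM, did not test it. Egr2, a zinc finger factor, had 0.477, 1.28 and 1.74 scaled FPKM in LQ-40 hearts, against 5.06, 3.88 and 6.48 in Model hearts (difference -1.53 ± 0.28 SE, adjusted p = 0.0340). The AP-1 member Fosl2 had 5.29, 5.62 and 9.37 scaled FPKM in LQ-40 hearts, against 12.7, 14.7 and 16.8 in Model hearts (difference -1.05 ± 0.17 SE, adjusted p = 0.0217). Klf4, a Krueppel-like factor, had 18.8, 17.4 and 20.8 scaled FPKM in LQ-40 hearts, against 31.4, 52.7 and 35.98 in Model hearts (difference -1.01 ± 0.17 SE, adjusted p = 0.0224). In each of these 5 the LQ-40 libraries were all lower. The difference was negative in 23 of the 25. Egr1 at -1.52 (adjusted p = 0.0744) and Fos at -1.82 (adjusted p = 0.288) did not pass, though neither overlapped between the groups.

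Further genes that fell are given singly. Cdkn1a (p21, an inhibitor of the cell cycle) had 7.50, 10.4 and 10.4 scaled FPKM in LQ-40 hearts, against 26.8, 31.8 and 45.8 in Model hearts (difference -1.76 ± 0.22 SE, adjusted p = 0.00502). Rcan1, a calcineurin inhibitor that calcineurin itself induces, had 25.3, 35.4 and 43.0 scaled FPKM in LQ-40 hearts, against 104, 73.7 and 112 in Model hearts (difference -1.46 ± 0.21 SE, adjusted p = 0.0102). Abra (STARS, an actin-binding activator of serum response factor) had 8.16, 8.35 and 5.72 scaled FPKM in LQ-40 hearts, against 20.9, 22.3 and 23.0 in Model hearts. It fell 2.77-fold and passed in all 14 alternatives (difference -1.47 ± 0.17 SE, adjusted p = 0.00313). Vegfa, the endothelial growth factor, had 25.2, 24.6 and 18.1 scaled FPKM in LQ-40 hearts, against 43.4, 48.3 and 45.3 in Model hearts (difference -0.99 ± 0.13 SE, adjusted p = 0.00572). Foxs1, a forkhead factor, differed by -1.46 and the actin-binding Xirp1 by -0.93 (adjusted p 0.0254 and 0.0367), and without LQ-40 1 neither passed (adjusted p 0.0734 and 0.0607). Xirp1, chosen after its values were seen, overlaps Cx3cr1 on the same strand and is uncertain. Of 17 tested genes listed as cardiac stress or fetal, Gdf15 and Rcan1 fell, against 0.485% of tested genes, and 15 did not pass. Among those 15 was atrial natriuretic peptide, Nppa, at 266, 1673 and 768 scaled FPKM in LQ-40 hearts, against 1364, 1168 and 2907 in Model hearts (difference -1.25 ± 0.79 SE, adjusted p = 0.571). Nppb, which encodes its ventricular relative, had 83.3, 267 and 382 scaled FPKM in LQ-40 hearts, against 662, 612 and 833 in Model hearts (difference -1.76 ± 0.63 SE, adjusted p = 0.284). Nppa overlapped between the groups and Nppb did not, and neither difference passed.

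Interferon-induced GTPases rose in LQ-40 hearts. Of 33 tested interferon response genes, 3 rose (Iigp1, Igtp and Gbp3), 0 fell and 30 did not pass, against a background of 0.185% of genes that rose. The median difference was 0.68, and 0.39 without Model 3. For 18 of the 33 all LQ-40 libraries lay above all Model libraries, against 7.28% of tested genes. Without LQ-40 1, 2 of the 33 rose, and Igtp did not pass (adjusted p = 0.0741). Irgm2, Tgtp2 and Gbp5, of the same GTPase families but not on that list, rose too, Gbp5 with an adjusted p of 0.0689 without LQ-40 1.

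**Figure D3:**
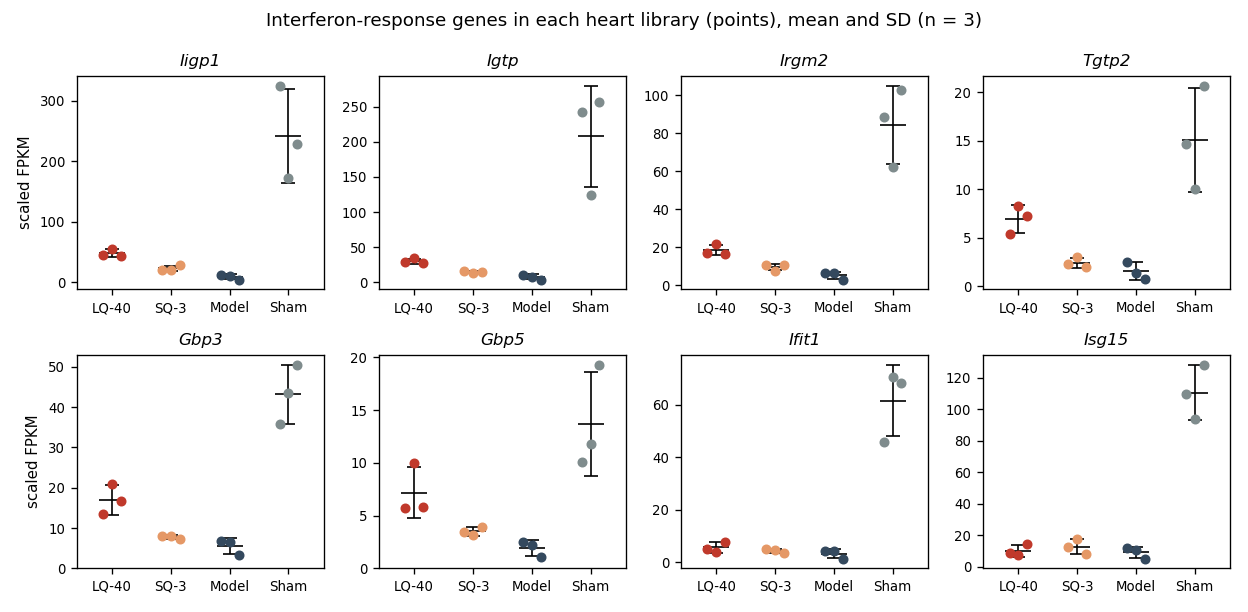
Scaled FPKM of 8 interferon response genes in each heart library, a panel per gene, with groups in the order LQ-40, SQ-3, Model and Sham. Points are libraries, bars are the mean and SD of 3. The 3 LQ-40 libraries lie above the 3 Model libraries for the first 6 genes and overlap them for Ifit1 and Isg15, and the Sham libraries are the highest in every panel.

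Iigp1 (Irga6, an immunity-related GTPase) had 44.5, 55.9 and 44.1 scaled FPKM in LQ-40 hearts, against 12.8, 10.6 and 4.45 in Model hearts. Means were 48.2 ± 6.68 in LQ-40 hearts and 9.27 ± 4.31 in Model hearts (SD, n = 3 per group), a rise of 5.12-fold (difference 2.36 ± 0.33 SE, adjusted p = 0.00851). Igtp (Irgm3) had 28.3, 33.7 and 27.2 scaled FPKM in LQ-40 hearts, against 10.8, 7.91 and 3.53 in Model hearts (difference 1.97 ± 0.34 SE, adjusted p = 0.0254). Irgm2 had 16.9, 21.5 and 16.6 scaled FPKM in LQ-40 hearts, against 6.35, 6.37 and 2.92 in Model hearts (difference 1.69 ± 0.26 SE, adjusted p = 0.01501). Igtp and Irgm2 overlap on the same strand, so they are not separate evidence. Tgtp2, which has a near-identical copy Tgtp1, had 5.36, 8.25 and 7.21 scaled FPKM in LQ-40 hearts, against 2.53, 1.41 and 0.777 in Model hearts (difference 1.67 ± 0.28 SE, adjusted p = 0.0237). Of the guanylate-binding proteins, Gbp3 had 13.5, 20.8 and 16.8 scaled FPKM in LQ-40 hearts, against 6.85, 6.41 and 3.35 in Model hearts (difference 1.49 ± 0.23 SE, adjusted p = 0.0141). Gbp5, known as a promoter of inflammasome assembly, had 5.75, 10.003 and 5.78 scaled FPKM in LQ-40 hearts, against 2.50, 2.24 and 1.09 in Model hearts (difference 1.47 ± 0.27 SE, adjusted p = 0.0345). In these 6 genes Model 3 was the lowest library.

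Isg15 and Ifit1, of the same interferon list, did not pass. Isg15, a ubiquitin-like modifier, had 8.68, 7.42 and 14.6 scaled FPKM in LQ-40 hearts, against 11.8, 10.9 and 5.27 in Model hearts (difference 0.14 ± 0.33 SE, adjusted p = 0.899). Ifit1, which binds foreign RNA, had 5.17, 4.10 and 7.93 scaled FPKM in LQ-40 hearts, against 4.31, 4.28 and 1.43 in Model hearts (difference 0.68 ± 0.31 SE, adjusted p = 0.421). Both overlapped between the groups. Gbp2, of the guanylate-binding family, differed by 1.05 (adjusted p = 0.155). In Sham hearts the levels were far higher than in either group, at 325, 173 and 228 scaled FPKM for Iigp1 and 46.0, 70.8 and 68.3 for Ifit1. Among surface proteins that interferons are known to raise, H2-Q6 of the class Ib family, whose near copies make its reads uncertain, had 8.55, 19.4 and 11.6 scaled FPKM in LQ-40 hearts, against 4.29, 1.73 and 1.74 in Model hearts (difference 1.98 ± 0.32 SE, adjusted p = 0.0179). Chosen after its values were seen, Cd274 (PD-L1) had 3.47, 6.07 and 3.62 scaled FPKM in LQ-40 hearts, against 1.83, 1.05 and 0.792 in Model hearts (difference 1.27 ± 0.23 SE, adjusted p = 0.0345), and did not pass without LQ-40 1 (adjusted p = 0.0622). Tnfsf10 (TRAIL), chosen in the same way, had 8.62, 9.46 and 7.91 scaled FPKM in LQ-40 hearts, against 3.29, 3.21 and 2.07 in Model hearts (difference 1.34 ± 0.18 SE, adjusted p = 0.00770).

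Immune cell markers, of which none was called, against 0.669% of all tested genes, are given beside these genes. The summed level of 18 lymphocyte markers was 126 to 238 scaled FPKM in LQ-40 hearts, against 28.7 to 131 in Model hearts. The immunoglobulin genes Igkc and Ighm dominate that sum. Igkc had 164.8, 82.6 and 99.3 scaled FPKM in LQ-40 hearts, against 101.2, 93.6 and 17.9 in Model hearts. Ighm had 62.8, 23.1 and 15.2, against 10.8, 20.1 and 5.65. The summed level of 11 neutrophil markers was 8.81 to 92.1 scaled FPKM in LQ-40 hearts and 9.23 to 17.2 in Model hearts. That of 28 macrophage markers was 1027 to 2082 and 1087 to 1521 in LQ-40 and Model hearts. No listed marker was at 0 in all 6 libraries, but defining ones were near it. Cd3e, of the T cell receptor, had 0.114, 0.324 and 0.488 scaled FPKM in LQ-40 hearts, against 0.456, 0.230 and 0.0574 in Model hearts. Ly6g, of neutrophils, was listed at 0 in LQ-40 2 and in Model 1 and Model 3. The part of these cells in the rise of the GTPases was not tested.

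The listed matrix genes were lower on the median in LQ-40 hearts, and none of them passed. The fibrillin gene Fbn2 is not on that list, and it fell, as given under the other observations. Of 38 tested collagens and other structural matrix genes, 0 were called, against 0.669% of all tested genes. The difference was negative in 37 of the 38, and the list median was -0.70. For 10 of the 38 all LQ-40 libraries lay below all Model libraries, against 10.8% of tested genes. The median moved to -0.21 without LQ-40 1 and to -1.05 without LQ-40 3. The summed level of the list was 2903, 6115 and 8569 scaled FPKM in the LQ-40 libraries 1, 2 and 3, against 8843, 7370 and 8394 in the Model libraries. LQ-40 1 was the low one and LQ-40 3 lay inside the Model range.

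**Figure D4:**
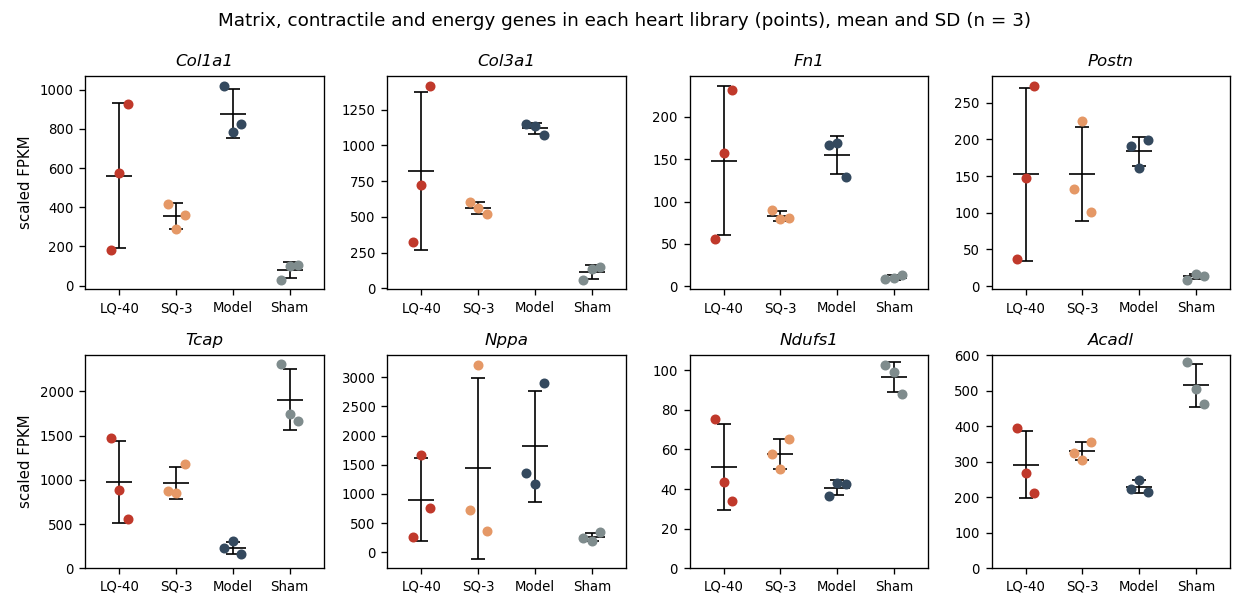
Scaled FPKM of 4 matrix genes (upper row) and of Tcap, Nppa, Ndufs1 and Acadl (lower row) in each heart library, with groups in the order LQ-40, SQ-3, Model and Sham. Points are libraries, bars are the mean and SD of 3. LQ-40 libraries are spread over the 4 matrix genes, whereas for Tcap all 3 lie above the Model libraries.

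Col1a1, of type I collagen (chr11:94936224-94953042), had 184, 574 and 925 scaled FPKM in LQ-40 hearts, against 1020.1, 785 and 826 in Model hearts. Its mean was 561 ± 370.4 in LQ-40 hearts and 877 ± 126 in Model hearts (SD, n = 3 each), and the SD in LQ-40 hearts exceeded the difference. The difference was -0.92 with a 95% interval of -2.17 to 0.34 (adjusted p = 0.565). Col3a1, of type III collagen, had 327, 721 and 1419 scaled FPKM in LQ-40 hearts, against 1147, 1136 and 1074 in Model hearts, a difference of -0.69 with an interval of -1.71 to 0.34 (adjusted p = 0.598). For Fn1, fibronectin, the levels were 56.0, 157 and 232 scaled FPKM in LQ-40 hearts, against 167, 169 and 129 in Model hearts. Its difference of -0.27 turned to 0.31 without LQ-40 1. Postn, periostin of activated fibroblasts, had 37.3, 147 and 273 scaled FPKM in LQ-40 hearts, against 191, 161 and 199 in Model hearts, and its difference of -0.66 turned to 0.13 without LQ-40 1. These 4 genes overlapped between the groups. Elastin and smooth muscle actin did not overlap between the groups, and neither passed. Eln, elastin, had 57.7, 101.4 and 85.3 scaled FPKM in LQ-40 hearts, against 195, 181 and 183 in Model hearts, a difference of -1.22 with an interval of -1.89 to -0.56 (adjusted p = 0.112). Acta2, smooth muscle actin, had 116, 112 and 125 scaled FPKM in LQ-40 hearts, against 171, 162 and 169.8 in Model hearts (difference -0.51 ± 0.16 SE, adjusted p = 0.224).

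Of 18 tested genes of activated fibroblasts 0 were called, against 0.669% of all tested genes. Their median difference was -0.59, and it was -0.13 without LQ-40 1 and -1.08 without LQ-40 3. Their summed level was 346, 1147 and 1423 scaled FPKM in the LQ-40 libraries, against 1582, 1082 and 1518 in the Model libraries. Comp, a cartilage matrix protein also made by such cells, had 8.09, 146 and 203 scaled FPKM in LQ-40 hearts, against 231, 100.4 and 228 in Model hearts. Timp1, an inhibitor of matrix proteases, had 7.74, 47.5 and 129.9 scaled FPKM in LQ-40 hearts, against 99.0, 70.3 and 81.9 in Model hearts. Both genes spread over more than 10-fold among LQ-40 libraries. Of 25 tested genes of the TGF-beta pathway, the main inducer of myofibroblasts, 0 were called, against 0.669% of all tested genes. Tgfb1 differed by -0.41 (adjusted p = 0.375). Against 0.485% of tested genes that fell, 1 of 31 matrix-processing enzymes and inhibitors fell and 0 rose. It was Adamts4, a protease that cuts aggrecan and versican, with 0.128, 0.170 and 1.32 scaled FPKM in LQ-40 hearts, against 4.44, 3.95 and 4.24 in Model hearts (difference -1.84 ± 0.24 SE, adjusted p = 0.00607). The count of Adamts4 is uncertain while the strand setting is not known.

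Energy genes ordered the LQ-40 libraries the other way from the matrix genes. Of 35 nuclear genes of oxidative phosphorylation 0 were called, against 0.669% of all tested genes. All 35 had a positive difference, with a median of 0.24. That median was -0.03 without LQ-40 1 and 0.50 without LQ-40 3. The summed level was 12720, 7674 and 6471 scaled FPKM in the LQ-40 libraries, against 6427, 8337 and 6919 in the Model libraries. LQ-40 1 was the high one. Ndufs1, of complex I, had 75.4, 43.5 and 34.1 scaled FPKM in LQ-40 hearts, against 36.5, 43.2 and 42.4 in Model hearts. Acadl, of fatty acid oxidation, had 396, 269 and 211 scaled FPKM in LQ-40 hearts, against 223, 249 and 214 in Model hearts. Genes encoded in mitochondria took 21.2%, 15.5% and 11.1% of reads in the LQ-40 libraries 1, 2 and 3, against 10.8%, 15.3% and 14.2% in the Model libraries. Of the 32 fatty acid genes, 19 calcium cycling and channel genes and 13 mitochondrial genes tested, 0 were called, against 0.669% of tested genes. The part of these transcripts in the matrix values of LQ-40 1 was not tested.

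Of 22 tested sarcomere genes, 1 rose, 0 fell and 21 did not pass, against 0.185% of tested genes that rose. The gene that rose was Tcap (telethonin, which caps titin at the Z-disc), with 1473, 887 and 557 scaled FPKM in LQ-40 hearts, against 225, 305 and 161 in Model hearts. Its LQ-40 libraries were spread and all above the Model libraries, a rise of 4.02-fold (difference 2.01 ± 0.35 SE, adjusted p = 0.0258). Without LQ-40 1 its adjusted p was 0.0640. The myosin heavy chains did not pass. Myh6, the adult form, differed by 0.27 and Myh7, the fetal form, by 0.08 (adjusted p 0.778 and 0.915).

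**Figure D5:**
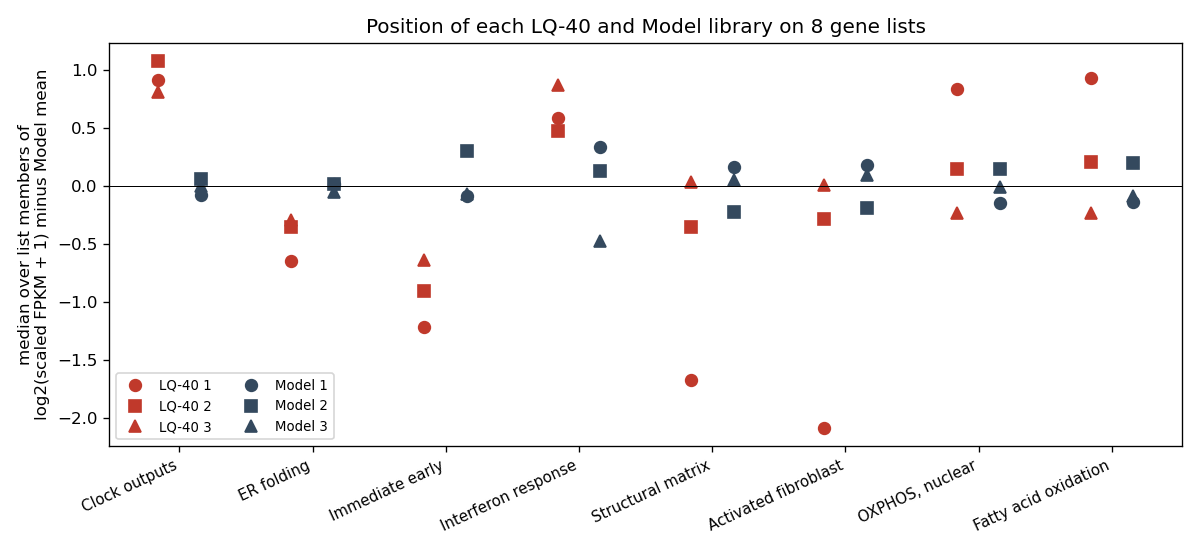
Position of each LQ-40 and Model library on 8 gene lists, as the median over list members of log2(scaled FPKM + 1) minus the Model mean. Circles, squares and triangles are replicates 1, 2 and 3, which are separate samples with no stated pairing across groups. The 3 LQ-40 libraries lie together for clock outputs, and LQ-40 1 lies apart for matrix, fibroblast and energy genes.

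The plot of lists by library shows which groups of genes rest on all 3 LQ-40 libraries. For clock outputs the list medians were 0.92, 1.08 and 0.82 in the LQ-40 libraries 1, 2 and 3 relative to the Model mean. For endoplasmic reticulum genes they were -0.64, -0.35 and -0.30, and for immediate early genes -1.22, -0.90 and -0.64. For structural matrix they were -1.67, -0.35 and 0.04, with LQ-40 1 the farthest below. Markers of the other cells of a heart piece were called in none of their lists, against 0.669% of all tested genes. At that share, lists this short can be expected to hold few or no calls. Those lists were 20 endothelial, 14 smooth muscle and pericyte, 28 macrophage, 13 mesothelial and 16 resident fibroblast genes tested. Summed endothelial markers were 600 to 738 scaled FPKM in LQ-40 hearts and 608 to 676 in Model hearts. Summed markers of atria and the conduction system were 302 to 1755 scaled FPKM in LQ-40 hearts and 1243 to 2997 in Model hearts, a sum that Nppa dominates.

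SQ-3 hearts were compared with LQ-40 hearts in the same fit. Doses and times of neither compound are in the labels, so it is not known whether they were matched. Of the 13000 genes 0 were called (0.0%), against 394 at an unadjusted p under 0.05 in limma and 388 in limma-voom, which also called 0. Intervals show how far the compounds could differ, and values are LQ-40 minus SQ-3 with 95% intervals. For Dbp the difference was -0.03 (-0.50 to 0.44) and for Hspa5 -0.03 (-0.31 to 0.25), both close to 0. For Col1a1 it was 0.39 (-0.86 to 1.65), a far wider interval. The GTPases were higher in LQ-40 hearts by intervals that leave out 0 before adjustment. Iigp1 had 44.5, 55.9 and 44.1 scaled FPKM in LQ-40 hearts, against 20.1, 21.1 and 28.2 in SQ-3 hearts, a difference of 1.04 (0.32 to 1.75). Tgtp2 differed by 1.21 (0.59 to 1.82) and Gbp3 by 1.02 (0.52 to 1.51). Per2 had 8.74, 9.99 and 5.93 scaled FPKM in LQ-40 hearts, against 3.89, 4.43 and 2.31 in SQ-3 hearts, a difference of 1.03 (0.48 to 1.57). The adjusted p of each of these 7 genes was 0.9995 over all genes, so none passed. The comparisons of SQ-3 and LQ-40 with Model share the Model libraries.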

How the data were processed

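Messenger RNA of 3 LQ-40 and 3 Model mouse hearts was analysed, with 3 SQ-3 and 3 Sham hearts in the same fit. Groups were taken from the sample titles. Per the labels' protocols, RNA was captured with poly-T beads, and both a plain and a strand-marking library are described. Per the submitters' processing notes, fastp, HISAT2 2.0.5 and featureCounts 1.5.0-p3 were used, with the build mm10. For the annotation release, the strand setting and reads with several matches, nothing is stated in the sources used here. For that reason overlapping genes and genes with near-identical copies count as uncertain.

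The authors deposited FPKM values. FPKM times gene length was a whole multiple of 1 step for 100.0% of values to within 0.02 of a read, and that step gives each library its depth, from 13085370 to 16698987 reads over the 12 libraries. A single read on 1 kilobase of gene equalled between 0.0566 and 0.0805 FPKM. No label gives the rule for the library size used, which lay between 0.828 and 1.164 of the summed reads.

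Each library was scaled by its median ratio across the 10422 genes with at least 1 FPKM in all 12 libraries, which moved the median LQ-40 minus Model difference by 0.0041 on the log2 scale. Genes with at least 1 FPKM in 3 of 12 libraries were tested in R 4.3.3 with limma 3.58.1, on log2(scaled FPKM + 1) (lmFit, contrasts.fit, eBayes with trend). Two-sided p-values were adjusted after Benjamini and Hochberg over all 13000 genes, with 0.05 as the threshold. Every adjusted p comes from this fit unless limma-voom (on the recovered reads, with TMM factors) is named. The scale understates changes of low genes. An exact permutation test of 3 against 3 cannot go below p = 0.1 and was not used.

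The gene lists, named genes and alternatives were chosen with earlier results of these data known. The rule for named genes took, per direction, the 15 largest called changes among protein-coding genes with a group mean of at least 2 scaled FPKM and no overlap, up to 6 called and 3 uncalled members per list, 15 fixed genes, and the genes most variable among LQ-40 hearts or nearest to a difference from SQ-3 hearts. Some genes were named outside this rule, and not all of them are marked in the text. The 14 alternatives were deposited FPKM, quantile normalization, 0.1 as pseudocount, testing every gene, keeping genes that average 5 FPKM or more, fitting the LQ-40 and Model libraries alone, limma-voom, a replicate block and leaving out each of 6 libraries. Same-numbered samples do not come from a stated shared animal, litter or day.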

Additional observations from a re-analysis of the deposited data

How the results depend on the processing

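Of the 87 called genes, 9 passed the threshold in all 14 alternatives and 64 in 7 or more. A gene that an alternative did not test counts there as not passed. That holds for Per3, Arntl and Nr4a3 under the filter at a mean of 5 FPKM. With no filter (29037 genes tested) 48 genes were called, 15 that rose and 33 that fell. With only the LQ-40 and Model libraries in the fit 14 were called, 5 that rose and 9 that fell, and the reason was not tested. Leaving out 1 library gave 31 to 155 called genes, 10 to 53 that rose and 21 to 102 that fell. The extremes were 31 without Model 3 and 155 without LQ-40 3, and the count was 50 without LQ-40 1, 45 without LQ-40 2 and 55 without Model 1. The cause was not tested. Against SQ-3, no filter gave 2 calls, and leaving out 1 library gave 0 to 1. Deviations of same-numbered LQ-40 and Model libraries from their group means correlated at -0.268, -0.185 and -0.0174. Those of the other pairs ran from -0.155 to 0.266. With 3 libraries a group, these values cannot show whether the numbers pair the libraries. A fit with the replicate number as a block called 59 genes, 40 of which fell.

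Counts of called list members varied in the same way. Core clock genes numbered 1 with a mean of at least 5 FPKM, since the other called members averaged less and were not tested there. No called gene that this filter kept lost its call. Clock outputs numbered 3 with only the groups compared. Endoplasmic reticulum genes numbered 5 with no filter, 2 with only the groups compared and 4 to 12 without 1 library. Heat shock genes numbered 1 with no filter, 1 with only the groups compared and 1 to 4 without 1 library. Immediate early genes numbered 1 with no filter, 1 with only the groups compared, 2 under the replicate block and 1 to 6 without 1 library. They numbered 3 with a mean of at least 5 FPKM, where Egr2 and Nr4a3 averaged less and were not tested. Interferon genes numbered 5 with a mean of at least 5 FPKM, 0 with only the groups compared, 5 with limma-voom and 1 to 5 without 1 library. Matrix and oxidative phosphorylation genes numbered 0 in every alternative.

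Values of named genes reversed only on leaving out a library, and none of these genes was called. Without LQ-40 1 the difference was -0.22 for Cfd, 0.31 for Fn1, 0.13 for Postn and -0.0103 for Myh6, against 2.61, -0.71, -1.29 and 0.63 at the other end of the range without LQ-40 3. For Ccl21a it was -2.07 without LQ-40 1, 0.25 without LQ-40 2 and 0.28 without Model 2. For Gapdh it was -1.09 without LQ-40 3, -0.25 without Model 1, -0.15 without Model 3 and 1.51 without Model 2. For Myh7 it was -0.05 without LQ-40 3 and -0.12 without Model 2. S100a9 passed without LQ-40 2 (limma adjusted p = 0.0189). With 3 libraries a group and 1 LQ-40 library apart, a missed call does not show that levels were alike.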

Other observations

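Among the 87 called genes, 50 stood in none of the 37 gene lists, 12 that rose and 38 that fell. The genes named in the next sentences were chosen after their values were seen, and their adjusted p come from limma. Spry4, an inhibitor of receptor tyrosine kinase signalling, had 3.50, 3.94 and 3.47 scaled FPKM in LQ-40 hearts, against 9.72, 11.5 and 11.5 in Model hearts, and passed in all 14 alternatives (difference -1.36 ± 0.17 SE, adjusted p = 0.00572). Dusp5, a phosphatase of ERK, differed by -0.73 (adjusted p = 0.0367). Heyl, a target of Notch, had 6.84, 8.60 and 8.35 scaled FPKM in LQ-40 hearts, against 16.6, 12.7 and 18.5 in Model hearts (difference -0.91 ± 0.15 SE, adjusted p = 0.0224). Nedd9, a scaffold of focal adhesions, had 6.85, 9.02 and 8.68 scaled FPKM in LQ-40 hearts, against 21.1, 16.4 and 22.3 in Model hearts (difference -1.19 ± 0.16 SE, adjusted p = 0.00662). The podosome scaffolds Sh3pxd2a and Sh3pxd2b differed by -0.62 and -1.32 (adjusted p 0.0294 and 0.0468). Adam19, a membrane protease, had 3.43, 3.91 and 5.22 scaled FPKM in LQ-40 hearts, against 10.96, 8.82 and 12.1 in Model hearts (difference -1.17 ± 0.17 SE, adjusted p = 0.0129). Fbn2, the fibrillin best known from development, had 0.560, 0.998 and 1.30 scaled FPKM in LQ-40 hearts, against 4.02, 3.27 and 3.68 in Model hearts (difference -1.27 ± 0.15 SE, adjusted p = 0.00411), without overlap. The tissue plasminogen activator gene Plat differed by -0.90 (adjusted p = 0.0443). Among the genes that rose, Pik3ip1, an inhibitor of PI3 kinase, had 14.0, 14.97 and 10.9 scaled FPKM in LQ-40 hearts, against 5.59, 4.70 and 5.70 in Model hearts (difference 1.17 ± 0.13 SE, adjusted p = 0.00313). Without LQ-40 1 the adjusted p was 0.109 for Dusp5, 0.0745 for Heyl, 0.0936 for Sh3pxd2a, 0.0721 for Sh3pxd2b, 0.0525 for Adam19 and 0.126 for Plat.

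Some values stood out within groups. The neutrophil gene S100a9 had 35.2, 1.93 and 48.3 scaled FPKM in LQ-40 hearts, against 1.56, 5.26 and 2.81 in Model hearts (difference 2.14 ± 0.88 SE, adjusted p = 0.353), so that LQ-40 2 lay inside the Model range. S100a8 had 20.4, 1.09 and 18.3 scaled FPKM in LQ-40 hearts, against 1.26, 3.09 and 1.43 in Model hearts. It was likewise high in LQ-40 1 and LQ-40 3, while LQ-40 2 lay below the Model libraries. Summed MHC class II genes were 193, 515 and 760 scaled FPKM in the LQ-40 libraries 1, 2 and 3, against 614, 169 and 226 in the Model libraries. Gapdh, a common reference gene, had 0.934, 0.838 and 38.7 scaled FPKM in LQ-40 hearts, against 0.703, 18.6 and 0.950 in Model hearts. Gapdh has many near-identical copies in the mouse genome, so these values are uncertain. The called gene Gm26115, annotated as a microRNA gene, averaged 1.67 reads per library over the LQ-40 and Model hearts, and its adjusted p was 0.115 without LQ-40 1.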
